A study of Mus musculus with 6 samples.

Results

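The genes described here are 5 receptors of the tumor necrosis factor (TNF) receptor family that act as costimulators of lymphocytes, *Tnfrsf18* (GITR), *Tnfrsf4* (OX40), *Tnfrsf9* (4-1BB), *Tnfrsf1b* (TNFR2) and *Cd27*, and 3 ligands of the TNF family, *Tnfsf4* (OX40 ligand), *Tnfsf9* (4-1BB ligand) and *Cd70* (the ligand of CD27). They were taken by name, 8 of the 31053 genes in a table of single-cell counts from CT26 tumors, with earlier results of these data known, and the rule uses no measured value. Receptors of this family have no enzyme of their own. Ligands on a neighboring cell, mostly trimers, bring them together, and adaptor proteins of the TRAF family then pass the signal to NF-κB and MAP kinases. In tumors they are known from activated T cells and regulatory T cells, and the ligands from activated antigen-presenting cells.

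CT26 is a mouse colon carcinoma cell line, grown here as tumors in mice, and CD45+ cells were enriched on beads from the dissociated tumors before 10x 3′ single-cell mRNA-seq. The labels of the series describe 6 tumors, 2 treated with vehicle, 2 with a low dose and 2 with a high dose of an antibody against PD-1 that carries GITR ligand, so that the target of its ligand arm is the product of *Tnfrsf18* and that of its antibody arm the product of *Pdcd1*. For the low dose one label field gives 10 mg/kg and another 30 mg/kg, and the high dose is given as 30 mg/kg. Tumors were collected 5 days after treatment. The table holds 33961 cells of 4 libraries named M1, M2, M5 and M6, and these names match no sample label, so no library has a known treatment here, no comparison between treatments was made, and no p-value is given. The libraries are therefore reported side by side and are not replicates. They held 7160 to 10294 cells each, with a median of 11399 to 21800 unique molecular identifiers (UMIs, 1 for each captured transcript) per cell. Of the barcodes, 111 occurred in 2 libraries. Each cell carries 1 of 12 labels that the authors took from its correlation with reference immune profiles. These profiles include the genes described here, so differences between labels are descriptions.

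Levels are in CPM, counts of the gene among every 1000000 UMIs found in the cells of a label or group, pooled over the libraries unless a library is named. Because 3′ chemistry counts 1 tag per transcript, levels were not divided by gene length. Differences between genes in capture and mapping were not measured, so an order between genes is approximate. Intervals are exact 95% intervals for counting error only. Several members lie close together in the genome (GRCm38). *Tnfrsf4* (chromosome 4, 156013843 to 156016612) and *Tnfrsf18* (chromosome 4, 156026164 to 156028895) lie on the plus strand with 9551 bases between them. *Tnfrsf9* (150914562 to 150946102) and *Tnfrsf1b* (145213463 to 145246870, minus strand) are on the same chromosome, and *Cd27* is on chromosome 6 (125232622 to 125237010, minus strand). *Tnfsf9* (57105325 to 57107757) and *Cd70* (57145997 to 57149777, minus strand) lie on chromosome 17 with 38239 bases between them, and *Tnfsf4* is on chromosome 1 (161395409 to 161418410).

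RefSeq promoters (GRCm38.p6) were found for 5 of the 8 members. The 250 bases before the start site are shown for the neighboring genes *Tnfrsf18* and *Tnfrsf4* and for the second of the *Tnfrsf9* entries. This entry alone among these promoters held a match to either motif searched. Capitals mark the matches, a form of the NF-κB site (GGG, then 2 bases of any kind, TT, 1 base of any kind and CC) and TGANTCA (a form of the AP-1 site), each searched on both strands.
Tnfrsf18, chr4:156026072-156026321, plus strand: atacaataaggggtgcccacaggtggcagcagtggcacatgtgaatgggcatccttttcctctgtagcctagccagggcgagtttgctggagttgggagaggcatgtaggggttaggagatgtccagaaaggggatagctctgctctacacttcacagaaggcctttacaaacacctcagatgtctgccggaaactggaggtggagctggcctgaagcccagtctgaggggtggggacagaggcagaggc
Tnfrsf4, chr4:156013445-156013694, plus strand: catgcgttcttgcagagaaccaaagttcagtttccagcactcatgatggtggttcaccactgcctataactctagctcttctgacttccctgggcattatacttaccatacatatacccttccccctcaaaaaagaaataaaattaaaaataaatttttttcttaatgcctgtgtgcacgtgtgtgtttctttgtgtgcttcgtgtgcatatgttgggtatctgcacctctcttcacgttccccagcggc
Tnfrsf9, chr4:150927749-150927998, plus strand: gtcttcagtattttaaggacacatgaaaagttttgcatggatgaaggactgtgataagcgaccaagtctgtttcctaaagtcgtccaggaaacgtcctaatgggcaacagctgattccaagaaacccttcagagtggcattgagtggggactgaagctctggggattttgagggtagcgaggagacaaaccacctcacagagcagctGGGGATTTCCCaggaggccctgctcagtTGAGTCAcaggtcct
In the *Tnfrsf9* promoter the AP-1 match began 15 bases before the start site, and the NF-κB letters matched at 2 overlapping positions, 43 and 42 bases before it. Of all 32851 mouse promoters in the same table, 6.75% held a TGANTCA match and 4.11% an NF-κB match. These are matches of letters only.

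Over the 12 labels, all 5 receptors were highest in cells with a T cell label or the label NKT, while the 3 ligands were low throughout. Of all 11661 genes with at least 5 CPM in their highest label, 33.7% were highest in one of these labels. *Tnfrsf9* had the highest level of any member, 1300.2 CPM in NKT cells, followed by *Tnfrsf4* with 938 CPM in the label T cells and *Tnfrsf18* with 750.1 CPM in NKT cells. The ligand with the highest level was *Tnfsf9*, 52.8 CPM in Myeloid cells. On pooled values *Tnfsf4* reached 14.6 CPM and *Cd70* 10.7 CPM, both in T cell EFF. These places differed between libraries. *Tnfsf4* was higher in ILC than in T cell EFF in M1 (9.18 and 5.41 CPM) and M2 (10.1 and 5.14 CPM). For *Cd70*, NKT was above T cell EFF in M2 (30.8 and 6.88 CPM) and DC in M6 (24.5 and 17.95 CPM). The label T cells, with 11 *Cd70* UMIs in all, was above T cell EFF in M1 (42.9 and 4.42 CPM) and narrowly in M5. T cell EFF was thus highest for *Cd70* in no library. *Tnfsf18*, which encodes the natural ligand of GITR, had 24 UMIs in the whole table and 0 in T cell EFF, which allows up to 0.0571 CPM there.

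**Figure D1:**
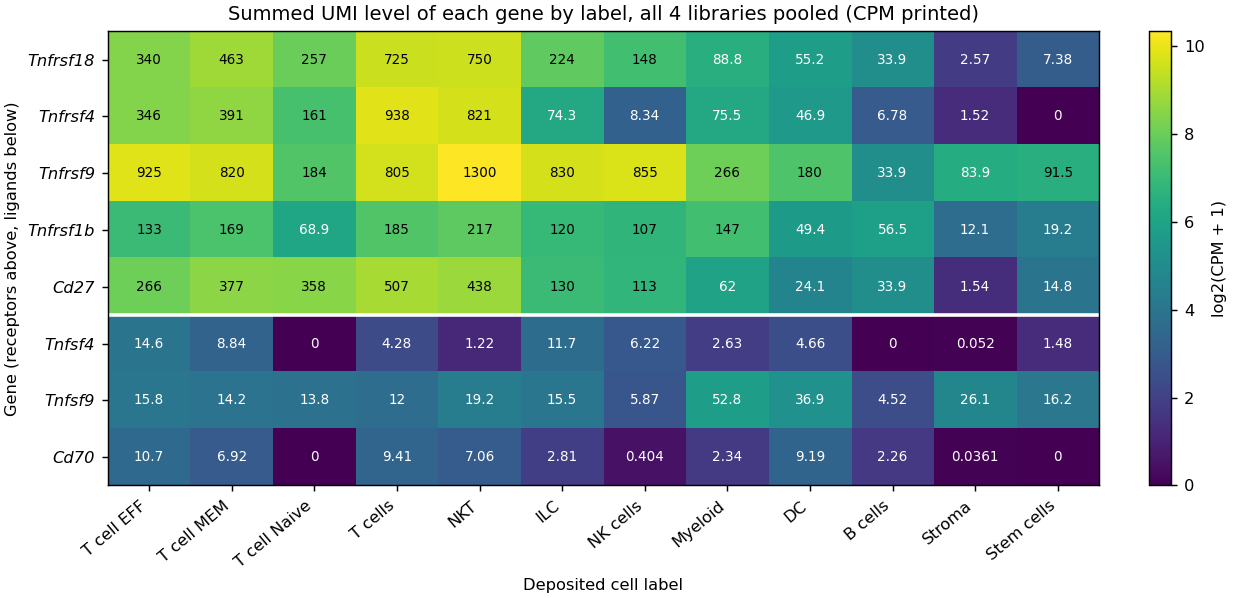
Summed UMI level of the 5 receptors (above the white line) and 3 ligands (below) in the 12 deposited labels, pooled over 4 libraries, with CPM printed in each field and color on a log2(CPM + 1) scale. Receptors other than Tnfrsf9 and Tnfrsf1b fall below 3 CPM in Stroma, where Tnfrsf9 has 83.9 CPM.

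*Tnfrsf18*, the GITR gene, had 750.1 CPM in NKT cells (567, 665, 881 and 761 in M1, M2, M5 and M6) and 725 CPM in the label T cells (902, 791, 759 and 665). The ranges of these labels overlapped. T cell MEM followed with 463 CPM (445, 414, 455 and 489) and T cell EFF with 340.4 CPM (277, 354, 336 and 400.0), and the values of T cell MEM lay above those of T cell EFF without overlap. ILC had 224 CPM (197 to 245) and NK cells 148 CPM (135 to 158), and these labels did not overlap either. The level fell to 88.8 CPM in Myeloid cells, 55.2 CPM in DC, 33.9 CPM in B cells and 2.57 CPM in Stroma. By number of transcripts rather than level, T cell EFF held 33.6% of all *Tnfrsf18* UMIs and ILC 28.5%.

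*Tnfrsf4*, whose product OX40 supports survival of activated T cells, was the receptor with the largest difference between T cell labels and NK cells. It had 938 CPM in the label T cells (1610, 1391, 803 and 890.1 in M1, M2, M5 and M6), 821 CPM in NKT, 391 CPM in T cell MEM and 346 CPM in T cell EFF (288, 356, 333 and 414). In NK cells it had 8.34 CPM (9.39, 3.91, 9.11 and 10.02), and every library lay below every library of the T cell labels. In ILC it had 74.3 CPM (61.0, 53.1, 82.3 and 88.0).

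*Tnfrsf9*, the gene of 4-1BB, a receptor of activated T and NK cells, had a flatter pattern. Below NKT (910, 1020, 1410 and 1499 CPM), it had 925 CPM in T cell EFF (780.0, 838, 1008 and 1031), 855 CPM in NK cells (749, 740.4, 906 and 956), 829.9 CPM in ILC and 819.9 CPM in T cell MEM. The ranges of these labels overlapped from each to the next. Within each library, NKT lay above T cell EFF (by 0.22 to 0.54 on the log2 scale) and T cell EFF above NK cells, while ILC lay above NK cells in M2 and below in M1, M5 and M6. The label T cells had 805 CPM with a wider range (386 to 875). T cell Naive had 184 CPM, and 104 CPM without M6, and Myeloid cells had 266 CPM.

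*Tnfrsf1b*, which encodes a TNF receptor without a death domain, varied least over leukocyte labels. Its level was 217 CPM in NKT (185 to 235), 185 CPM in the label T cells (112 to 211), 169 CPM in T cell MEM, 147 CPM in Myeloid cells (92.3, 138, 165 and 175), 133 CPM in T cell EFF, 119.9 CPM in ILC and 107 CPM in NK cells, with overlap between all neighbors in this order. T cell Naive followed with 68.9 CPM (60.7 to 82.9), below every NK cell library. B cells had 56.5 CPM and DC 49.4 CPM. *Cd27*, a costimulator that resting T cells already carry, had 358 CPM in T cell Naive (206 to 553, over 55 cells). It had 507 CPM in the label T cells (343, 159.9, 513 and 597, so that M2 lay below every T cell EFF library), 438 CPM in NKT, 377 CPM in T cell MEM and 266 CPM in T cell EFF (229.6, 290.5, 273 and 268). ILC at 129.9 CPM and NK cells at 113 CPM followed, below every T cell EFF library.

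**Figure D2:**
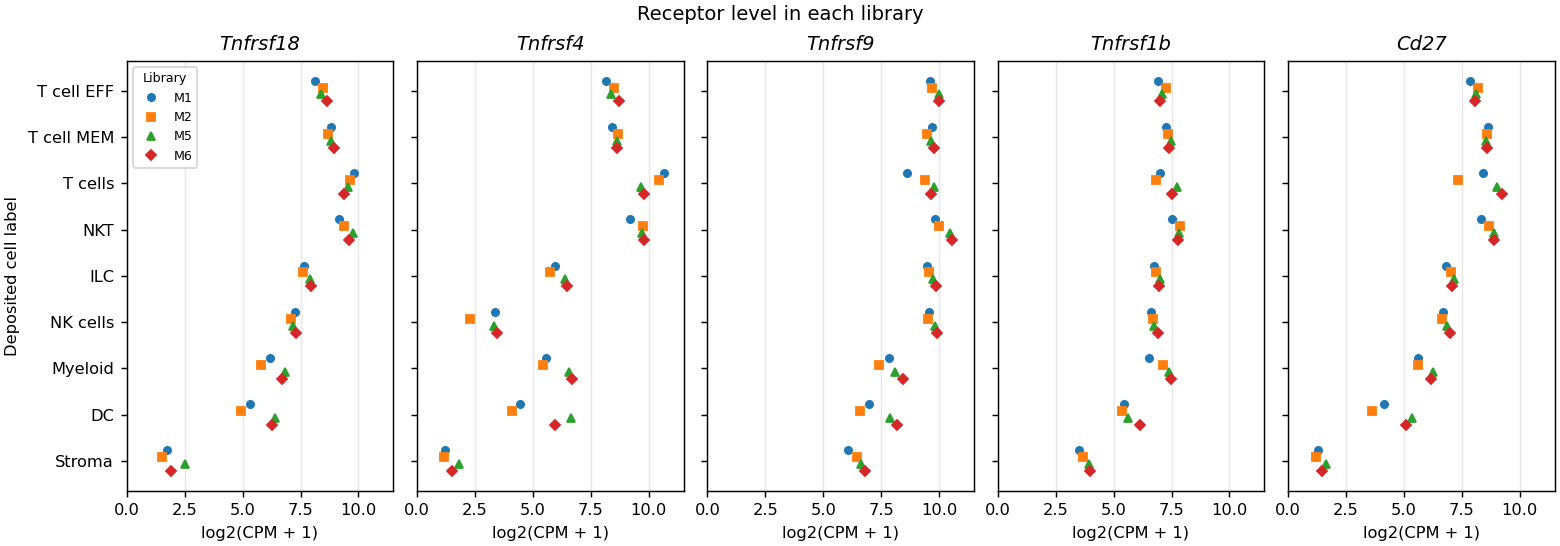
Level of each receptor on a log2(CPM + 1) axis in 9 labels, with 1 point for each of the 4 libraries. Tnfrsf4 drops between ILC and NK cells in every library, while the points of Tnfrsf9 lie close together in T cell EFF, T cell MEM, ILC and NK cells.

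The share of cells with a UMI separated *Tnfrsf4* from *Tnfrsf9* in the same way. After each cell had been thinned to 2000 UMIs, *Tnfrsf9* was found in 74.9% of T cell EFF cells, 61.4% of NK cells and 64.3% of ILC, *Tnfrsf18* in 48.9%, 28.2% and 36.6%, and *Tnfrsf4* in 44.4%, 1.23% and 7.17%. By share, *Tnfrsf9* was highest in T cell EFF and not in NKT, where it was found in 64.9% of cells. In labels not expected to carry *Tnfrsf4*, the share was 1.79% in B cells (2 of 112 cells, interval 0.217% to 6.30%) and 0.32% in Stroma (0.237% to 0.421%). The *Tnfrsf4* share in NK cells (0.922% to 1.61%) lay above that of Stroma and within the interval of B cells. Median depths before thinning were 2811 UMIs in B cells, 40692 in Stroma and 5397 in NK cells.

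A 2-fold rule was applied to all genes to set these differences in context. A gene was called where its log2(CPM + 1) difference between 2 labels was at least 1 in the same direction in each of the 4 libraries, among genes with a mean of at least 5 CPM. From NK cells to T cell EFF, 3 of the 8 members were called higher, *Tnfrsf4* (5.21 on the log2 scale), *Cd70* (3.06) and *Cd27* (1.23), and 0 lower, where 2.90% of 9200 genes were called higher and 2.08% lower. The median difference was 1.22 over members and 0.07 over all genes. *Cd70* passed the minimum of 5 CPM only through T cell EFF, so its place in this count follows from the difference itself, and with 0 UMIs in NK cells of M1 and M2 the size depends on the pseudocount of 1 CPM. *Tnfrsf18* missed the rule through M1 alone (0.84, against 1.39, 1.23 and 1.33 in M2, M5 and M6). *Tnfrsf9* differed by 0.06 to 0.18.

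Between ILC and NK cells, 1 of the 7 members with a mean of at least 5 CPM was called, *Tnfrsf4*, at 3.01 on the log2 scale, where 1.78% of genes were called higher and 0.0437% lower. As given below, *Tnfrsf4* in ILC lay almost wholly in cells with a CD3 UMI. In cells without one, its levels in ILC and NK cells were close. Between NKT and T cell EFF, *Tnfrsf4* was called higher (1.25) and *Tnfsf4* lower (−2.81), against 2.08% and 2.02% of all genes. *Tnfsf4* passed the minimum only through T cell EFF and had 5 UMIs in NKT, 0 of them in M1, so the size of its difference depends on the pseudocount. *Tnfrsf18* differed there by 1.14 and was below 1 in M2 and M6 (0.91 and 0.93). Between T cell MEM and T cell EFF 0 of 8 members were called, against 0.510% of genes higher and 2.98% lower. The member median there was 0.02, beside 0.03 over all genes.

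The labels NKT and T cells took the 2 highest places by pooled level for all receptors except *Tnfrsf9*. They also had the largest shares of their own cells positive for *Foxp3*, the transcript that marks regulatory T cells. *Tnfrsf9* was highest in NKT, but in the label T cells it had 805 CPM, below T cell EFF. Among cells with a T cell or NKT label, a cell was counted as *Foxp3* positive if it had a UMI of a CD3 gene and of *Foxp3* and none of *Cd8a* or *Cd8b1*. By this rule 251 of 781 NKT cells and 104 of 203 cells labelled T cells were *Foxp3* positive, against 108 of 3633 T cell EFF and 129 of 1179 T cell MEM cells. CD8 cells were those with a CD3 UMI and a UMI of *Cd8a* or *Cd8b1* but none of *Cd4* or *Foxp3* (3824 cells), and conventional CD4 cells those with *Cd4* but none of the others (401 cells). The 600 *Foxp3* positive cells came unevenly from the libraries, 32 from M1, 49 from M2, 248 from M5 and 271 from M6. No member entered these rules.

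In *Foxp3* positive cells all 5 receptors were higher than in CD8 cells in every library. Among all genes with a mean of at least 5 CPM, their pooled differences lay at percentiles 91.1 to 98.7. The share of all genes higher in every library without the 2-fold limit was not counted. *Tnfrsf4* had 1246 CPM (1485, 2193, 1146 and 1144 in M1, M2, M5 and M6), against 291 CPM in CD8 cells (278, 325, 265 and 306). *Tnfrsf18* had 972 CPM (1029, 1203, 1010 and 899.7) against 328 CPM (286, 347, 328 and 355). These were the receptors called by the 2-fold rule, and *Tnfsf4* was the member called lower, where 2.52% of genes were called higher and 1.70% lower. *Tnfsf4* passed the minimum only through CD8 cells, and its difference rests on 0 UMIs in *Foxp3* positive cells of M1, M2 and M5. In M1 and M2 the upper limits of these zeros, 15.01 and 10.8 CPM, lie above the CD8 levels, so the call there is set by the pseudocount. *Tnfrsf9* had 1632 CPM against 915 CPM, *Tnfrsf1b* 243 against 134 CPM, and *Cd27* 513 against 290.5 CPM, differences of 0.83, 0.85 and 0.82 on the log2 scale.

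Conventional CD4 cells lay between for *Tnfrsf18* at 643 CPM (593, 787, 662 and 611) and *Tnfrsf4* at 759 CPM (539, 1033, 895 and 658). For *Tnfrsf9* they were the lowest group, at 659.7 CPM (596, 488, 760.1 and 641), and here *Foxp3* positive cells were called higher by 1.31 on the log2 scale. Among all genes 0.596% were called higher and 0.518% lower in this comparison, and *Tnfrsf9* was the only member called. For *Cd27* the conventional CD4 cells had 236 CPM. Transcripts of myeloid cells were present in all 3 groups, with a *Lyz2* UMI in 16.0% of thinned CD8 cells, 19.4% of *Foxp3* positive cells and 22.9% of conventional CD4 cells, against 78.4% of Myeloid cells. Their part in the receptor levels was not tested. The conventional CD4 group was also picked by having no *Foxp3* UMI, at a median depth of 5003 UMIs per cell. Among thinned *Foxp3* positive cells, 61.1% still had a *Foxp3* UMI. Regulatory T cells whose *Foxp3* transcripts were not captured can thus fall into the conventional CD4 group. Their number, and their part in its receptor levels, was not tested.

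**Figure D3:**
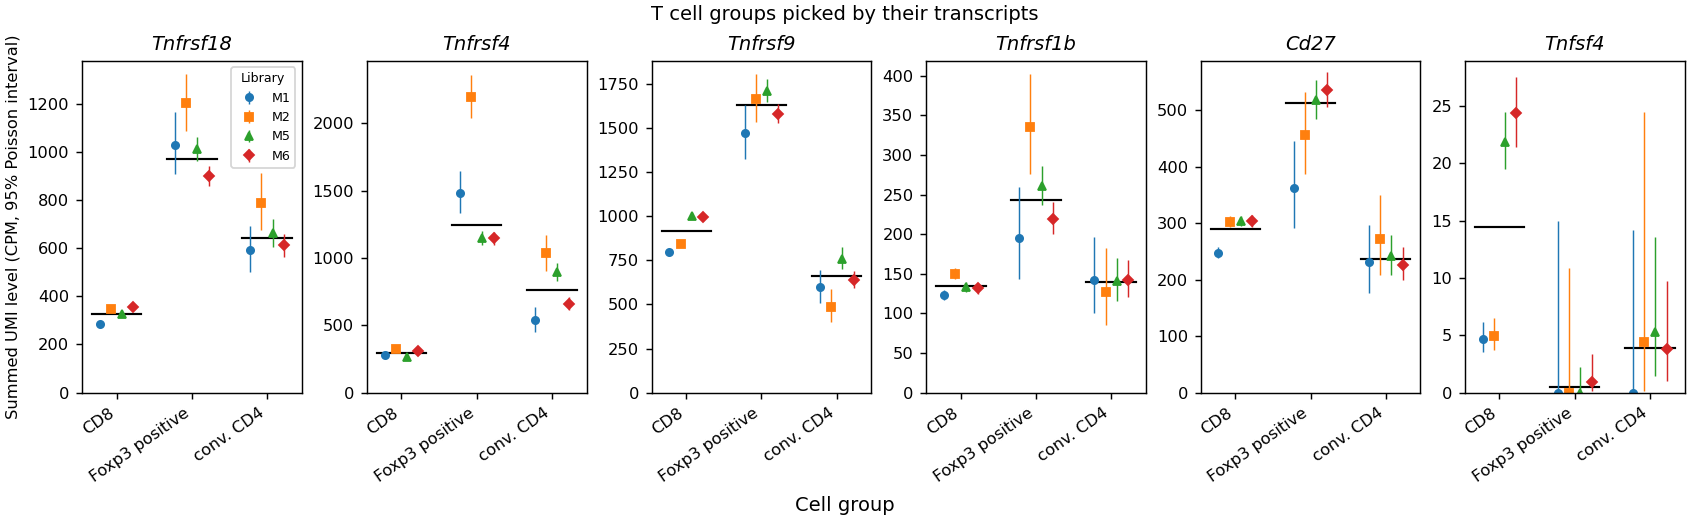
Level (CPM) of the 5 receptors and of Tnfsf4 in CD8, Foxp3 positive and conventional CD4 cells picked by their transcripts. Points are the 4 libraries with exact 95% Poisson intervals, and black lines are the pooled values. Each receptor is higher in Foxp3 positive than in CD8 cells in every library, and Tnfsf4 is seen mainly in CD8 cells of M5 and M6.

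The thinned shares gave the same order of the 3 groups for *Tnfrsf4*, *Tnfrsf18* and *Tnfrsf9*. *Tnfrsf4* was found in 80.3% of *Foxp3* positive, 60.5% of conventional CD4 and 39.3% of CD8 cells, and *Tnfrsf18* in 78.1%, 64.7% and 47.8%. *Tnfrsf9* was found in 79.6%, 46.5% and 72.6%. For *Tnfrsf1b* conventional CD4 cells were above CD8 cells by level (140.2 and 134 CPM) and below by share (21.6% and 26.7%). Of *Foxp3* positive cells 15.6% carried all 5 receptor transcripts at this depth and 1.87% none of them. For CD8 cells these shares were 3.52% and 6.23%, and for NK cells 0.0474% and 16.6%.

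*Pdcd1* and *Tnfrsf18*, the genes of both targets of the bispecific, differed in where they were highest. *Pdcd1* had 640.1 CPM in CD8 cells (601, 808, 609 and 551), 259 CPM in conventional CD4 cells and 152 CPM in *Foxp3* positive cells (65.1, 118, 168 and 155). By the 2-fold rule it was lower in *Foxp3* positive than in CD8 cells, the opposite of *Tnfrsf18*. At 2000 UMIs per cell, 34.8% of CD8 cells (interval 33.3% to 36.4%) carried UMIs of both genes, with 34.98%, 42.3%, 31.0% and 31.6% in M1, M2, M5 and M6. Of *Foxp3* positive cells 17.5% carried both (14.5% to 20.8%), of conventional CD4 cells 17.7%, of ILC 4.25% and of NK cells 0.403%.

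Among CD8 cells, receptor transcripts were more often seen where *Pdcd1* was seen. *Tnfrsf18* was found in 52.5% of 2469 cells with a *Pdcd1* UMI and 38.6% of 1255 cells without. The shares with and without *Pdcd1* were 50.3% and 40.2% in M1, 56.5% and 40.3% in M2, 50.0% and 35.9% in M5, and 53.0% and 39.4% in M6. For *Tnfrsf4* the pooled shares were 43.5% and 31.1%, for *Tnfrsf9* 76.9% and 64.2%, and for *Cd27* 49.2% and 39.2%, and these too were higher with *Pdcd1* in each library. *Tnfrsf1b* was found in 28.5% and 23.0%, but in M5 in 24.0% and 25.1%. T cell genes in general were not compared in this way, so whether these gaps are particular to the receptors was not tested.

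**Figure D4:**
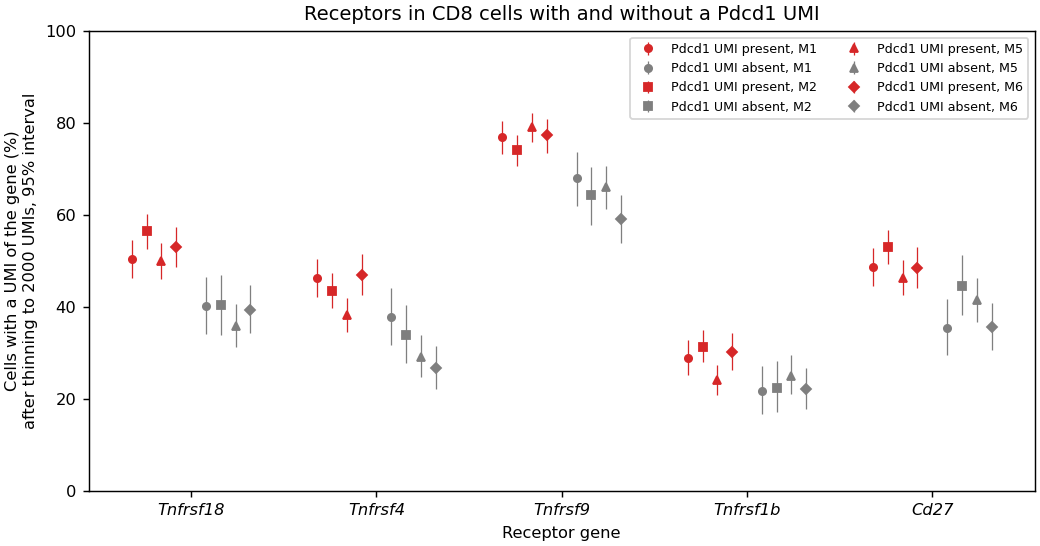
Share of CD8 cells with a UMI of each receptor after thinning to 2000 UMIs, in cells with (red) and without (grey) a Pdcd1 UMI, 1 point per library with exact 95% binomial intervals. Tnfrsf18 ranges from 50.0% to 56.5% with Pdcd1 and from 35.9% to 40.3% without.

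Other markers of CD8 cell state were set beside the receptors in the same way. *Havcr2* is a marker of terminally activated cells. *Tnfrsf9* was found in 84.4% of cells with a *Havcr2* UMI (81.6% to 87.0%) and 69.8% of those without, *Tnfrsf4* in 43.7% and 38.2%, and *Tnfrsf18* in 52.2% and 46.8%, the last not in M6 (47.0% and 47.6%). *Tcf7*, a transcription factor of memory-like cells, went the other way, with *Tnfrsf9* in 44.6% of 168 cells with a *Tcf7* UMI (37.0% to 52.5%) and 73.9% of those without. *Tnfrsf4* was found in 28.0% and 39.8% and *Tnfrsf18* in 38.7% and 48.3% of these cells, lower with *Tcf7* in each library. Cells with *Tcf7* numbered only 29, 31, 48 and 60 in M1, M2, M5 and M6. For both genes the intervals with and without *Tcf7* overlapped within each library. *Cd27* (48.2% and 45.7%) and *Tnfrsf1b* (30.4% and 26.5%) were not lower with *Tcf7* in the pooled cells, but *Tnfrsf1b* was higher in M5 alone (41.7% and 23.6%) and *Cd27* in M2 and M5 alone. With *Il7r*, another marker of memory cells, the pattern differed. *Tnfrsf18* was found in 51.98% of cells with an *Il7r* UMI and 46.4% of those without, higher in each library, *Tnfrsf4* in 42.3% and 38.2%, lower in M6, and *Tnfrsf9* in 70.5% and 73.4%, with overlapping intervals. *Cd27* was found in 34.98% of cells with at least 2 of 4 cycling markers and 47.8% of the others. This difference was 39.7% against 45.6% in M1, 46.4% against 52.0% in M2, 28.9% against 46.7% in M5 and 17.0% against 47.0% in M6, so its size varied between libraries while its direction did not. *Tnfrsf18* was found in 45.1% of cycling cells and 48.3% of the others, with overlapping intervals.

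Receptor transcripts in the labels ILC, NK cells and Myeloid were then set beside T cell transcripts in the same cells. In ILC *Tnfrsf4* had 119.7 CPM in the 2138 cells with a UMI of *Cd3d*, *Cd3e* or *Cd3g* and 2.81 CPM in the 2490 cells without. *Tnfrsf18* in ILC stood at 237 and 204 CPM and *Tnfrsf9* at 810.1 and 861 CPM in the same cells. In NK cells without a CD3 UMI *Tnfrsf18* had 145 CPM, *Tnfrsf9* 877 CPM and *Tnfrsf4* 2.73 CPM. Cells with a CD3 UMI were deeper, with a median of 13329 against 7660 UMIs in ILC.

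In Myeloid cells the split by CD3 separated the receptors into groups. *Tnfrsf4* had 121 CPM with a CD3 UMI and 2.46 CPM without, *Tnfrsf18* 132 and 19.7 CPM, and *Cd27* 92.1 and 14.0 CPM. *Tnfrsf9* had 357 and 123 CPM. *Tnfrsf1b* had 143 CPM with a CD3 UMI (94.4, 136, 159 and 163) and 153 CPM without (89.5, 139.8, 175 and 201), so its Myeloid level was as high in cells without T cell transcripts. The median depth was 17781 UMIs in Myeloid cells with a CD3 UMI and 5462 in those without. In DC *Tnfrsf1b* had 49.4 CPM and was the 1 member called lower than in Myeloid cells (−1.55 on the log2 scale), where 4.56% of genes were lower and 3.17% higher.

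*Tnfrsf9* had the highest level of the receptors in Stroma. The label held 26.0% of all *Tnfrsf9* UMIs, at 83.9 CPM (65.5, 88.1, 97.0 and 109), and 11.96% of its cells had a UMI at 2000 UMIs per cell, against 2.74% for *Tnfrsf1b*, 0.65% for *Tnfrsf18* and 0.32% for *Cd27*. *Tnfrsf1b* had 12.1 CPM there (10.4 to 14.9), with 22.8% of its UMIs. Stroma cells held 32.7 *Tnfrsf9* UMIs for each *Tnfrsf18* UMI (28.1, 46.1, 20.8 and 39.9), where T cell EFF held 2.72, Myeloid cells 3.001 and NK cells 5.79. In the 11037 Stroma cells with no UMI of *Ptprc* (CD45) or of a CD3 gene the level was 85.9 CPM. It was 150.2 CPM in cells with a UMI of at most 1 of the fibroblast genes *Col1a1*, *Col1a2*, *Col3a1* and *Dcn* (107, 149, 202 and 183), and 54.1 CPM in cells with all 4 (48.0, 55.6, 53.2 and 70.0). These groups did not overlap. The 8002 Stroma cells with 2 or 3 of these genes are in neither group. The split used all UMIs of a cell and was not matched for depth. *Ptprc*, the gene of the CD45 protein that the beads bind, was found in 1.46% of thinned Stroma cells.

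The ligands were rarer. *Tnfsf9*, the 4-1BB ligand gene, had 52.8 CPM in Myeloid cells (56.4, 59.5, 41.6 and 54.5), 36.9 CPM in DC (36.6, 36.0, 29.2 and 45.5) and 26.1 CPM in Stroma (21.4, 28.8, 28.2 and 30.7). The ranges overlapped from each label to the next, but within each library Myeloid cells lay above DC and DC above Stroma. Because Stroma cells were many and deep, they held 79.5% of all *Tnfsf9* UMIs. In Myeloid cells the level was 54.6 CPM with and 50.0 CPM without a CD3 UMI. It was 62.4 CPM in Myeloid cells with all 3 C1q genes (81.3, 62.6, 42.4 and 60.2), a macrophage signature, and 33.3 CPM in cells with at least 2 mast cell markers. Between the same groups of Stroma cells it ran opposite to *Tnfrsf9*. It had 20.3 CPM in cells with at most 1 fibroblast gene and 29.8 CPM in those with all 4, below in each library.

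DC with a UMI of at least 2 of the mature DC markers *Ccr7*, *Fscn1*, *Ccl22* and *Cacnb3* (153 cells) held more of all 3 ligands than the other 403 DC. *Tnfsf4* had 12.3 CPM (11.9, 11.98, 14.5 and 11.2) against 0.564 CPM, the latter from 3 UMIs. *Tnfsf9* had 67.3 CPM (56.8, 63.9, 61.4 and 87.1) against 20.7 CPM (23.9, 23.4, 12.5 and 21.7). *Cd70* had 25.0 CPM (9.24, 16.0, 11.3 and 63.2) against 0.752 CPM, the latter from 4 UMIs, and M6 was far above the other libraries. Without M6 the *Cd70* level in mature DC was 12.2 CPM. These 3 were the members called higher by the 2-fold rule in mature DC, where 1.83% of genes were called higher and 1.10% lower. *Tnfsf4* and *Cd70* passed the minimum only through the mature DC, so of the 3 only *Tnfsf9* entered the count independently of its difference. The mature DC were deeper, with a median of 14288 UMIs against 8844. At a fixed 2000 UMIs per cell, *Cd70* was found in 8.78% of them and 0.256% of the others. Of the DC outside this mature group, 115 had a UMI of both *Xcr1* and *Clec9a*, genes of cDC1, which cross-present antigen. These had 0 *Cd70* UMIs, which allows up to 1.16 CPM. Mature cDC1 were left out by this rule, so the 0 does not describe them.

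**Figure D5:**
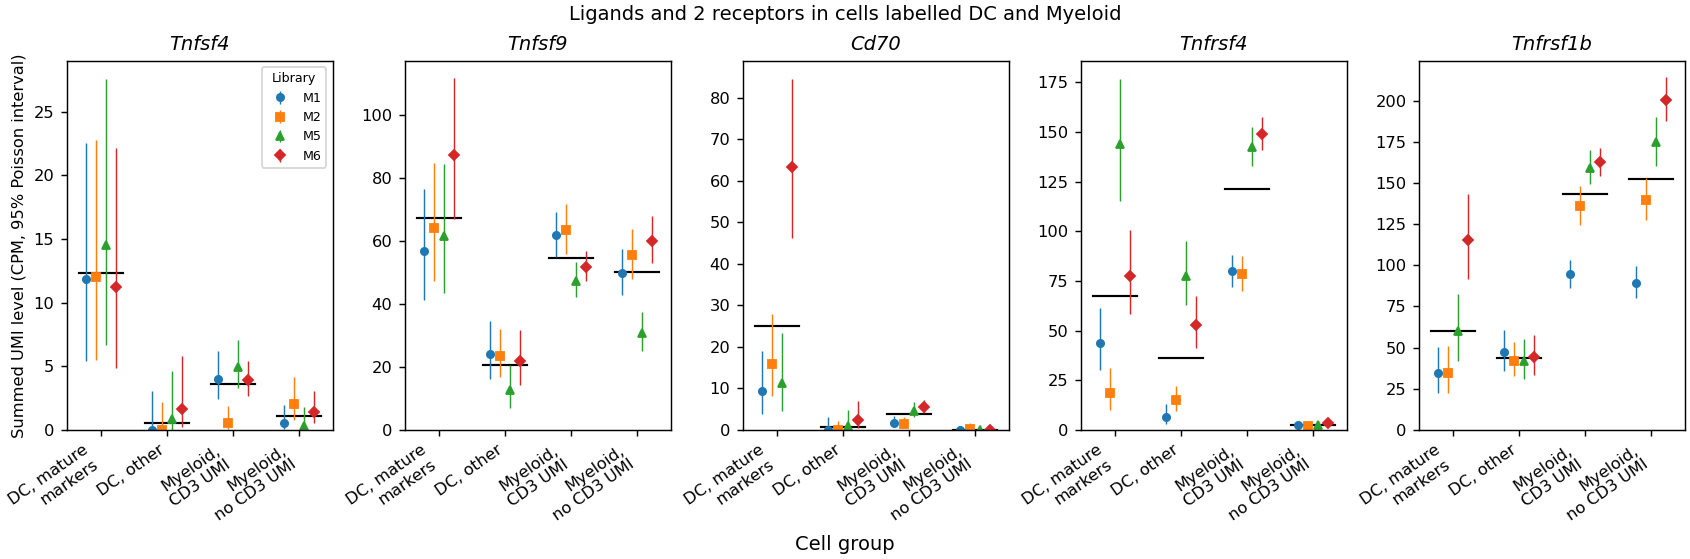
Level (CPM) of the 3 ligands and of Tnfrsf4 and Tnfrsf1b in DC with and without mature DC markers and in Myeloid cells with and without a CD3 UMI. Points are the 4 libraries with exact 95% Poisson intervals, and black lines are the pooled values. The ligands are higher in mature DC than in other DC in each library, and Tnfrsf4 is near 0 in Myeloid cells without a CD3 UMI.

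*Tnfsf4* was seen in lymphocytes as well. In CD8 cells it had 14.4 CPM, with 4.71 and 4.97 CPM in M1 and M2 and 21.9 and 24.4 CPM in M5 and M6, so these libraries differed by more than their counting intervals. The median depth of these CD8 cells was 9059.5, 8386.5, 9679.5 and 8400.5 UMIs in M1, M2, M5 and M6. At 2000 UMIs per cell a *Tnfsf4* UMI was found in 0.841%, 0.757%, 3.20% and 3.32% of them. *Foxp3* positive cells had 2 *Tnfsf4* UMIs in all, both in M6, and conventional CD4 cells had 9. In M1 and M2 these counts were too few to tell the groups apart. In ILC *Tnfsf4* had 15.8 CPM in cells without a CD3 UMI (14.7, 15.5, 15.3 and 17.5) and 9.10 CPM in cells with one (5.80, 5.96, 9.99 and 12.2), and these did not overlap. In NK cells the values were 6.18 and 6.29 CPM. At 2000 UMIs, 2.09% of CD8 cells had a *Tnfsf4* UMI.

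*Cd70* had 10.7 CPM in T cell EFF (4.42, 6.88, 12.6 and 17.95), 2.81 CPM in ILC and 0.404 CPM in NK cells. Conventional CD4 cells had the highest level of the transcript-picked groups, 34.0 CPM (7.70, 39.5, 37.1 and 37.0), against 9.87 CPM in *Foxp3* positive cells (8.14, 32.3, 12.8 and 4.23) and 8.75 CPM in CD8 cells (4.09, 4.79, 10.3 and 15.8). Within each library conventional CD4 cells lay above CD8 cells, although the ranges overlapped through the low value of M1. Without M6 the *Foxp3* positive cells had 15.3 CPM, and NK cells had 0.105 CPM from 3 UMIs.

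Over the 38 profiles of a label in a library with at least 20 cells, the receptors other than *Tnfrsf9* correlated with each other at 0.806 to 0.98. The 3 genes of 9668 most like *Tnfrsf18* were *Icos* (Pearson r of log2(CPM + 1) 0.99), *Ctla4* (0.98) and *Cd27* (0.98). *Tnfrsf4* was most like *Cd3d* (0.97), *Cd6* (0.96) and *Trac* (0.96), and its r with the neighboring *Tnfrsf18* was 0.88. *Cd27* was most like *Tnfrsf18* (0.98), *Icos* (0.98) and *Zdhhc18* (0.98), and *Tnfrsf1b* like *Usp25* (0.96), *Slc9a3r1* (0.95) and *Tnfrsf18* (0.94). *Tnfrsf9* was most like *Nabp1* (0.96), *Tapbpl* (0.95) and *Fbxo9* (0.94). These are descriptions, since the profiles share libraries and the labels were set on whole profiles.

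The ligands had looser partners, at much lower levels. The mean over the profiles was 5.09 CPM for *Tnfsf4*, 4.93 CPM for *Cd70* and 21.8 CPM for *Tnfsf9*. For the receptors it was 115 to 594 CPM. Counting error can lower r at low levels, and its part was not tested. *Tnfsf4* was most like *Gipc2* (0.83), *Pfn1* (0.79) and *Ncald* (0.78), *Tnfsf9* like *Isg15* (0.85), *Nfkbia* (0.83) and *Nadk* (0.82), and *Cd70* like *Il1r2* (0.75), *Il2ra* (0.73) and *Rspry1* (0.72). Between ligand and receptor, r was 0.37 for *Tnfsf4* and *Tnfrsf4*, 0.05 for *Tnfsf9* and *Tnfrsf9*, and 0.46 for *Cd70* and *Cd27*.

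Of 30 other receptors and ligands of the superfamily, 12 were highest in a T cell label or NKT and 12 in DC, Myeloid or B cells, and 6 had the same highest label in all 4 libraries. Among genes with at least 5 CPM in their highest label, these shares were 50.0% and 33.3% of the 24 listed genes, beside 33.7% and 31.9% of all 11661 genes. Of the 12 genes highest in a T cell label or NKT, 4 were highest in T cell Naive. That label held 217683 UMIs in 55 cells, so 3 UMIs there make 13.8 CPM. *Ltb*, which encodes lymphotoxin β, had 1249 CPM in NKT (784 to 1414). *Tnfrsf13c*, the receptor for the B cell survival factor BAFF, had 479 CPM in B cells (304 to 605) and 8.46 CPM in the next label. *Tnf* had 344 CPM in Myeloid cells (185, 254, 423 and 444), and *Fasl* 134 CPM in NK cells and 113 CPM in T cell MEM. *Tnfsf11* (RANKL) had 147 CPM in T cell Naive (0, 82.5, 0 and 339.7). Without M6 it had 29.6 CPM there, below the 73.1 CPM of T cell MEM. *Tnfsf8* (CD30 ligand) had 125 CPM in the label T cells (708, 55.9, 89.2 and 121), beside 124 CPM in T cell Naive, which fell to 81.3 CPM without M6.

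Of 21 genes of the signaling path below the receptors, 14 were highest in a T cell label or NKT and 6 in DC, Myeloid or B cells, and 6 had the same highest label in all libraries. These are 66.7% and 28.6% of the list, beside the same 33.7% and 31.9% of all genes, and no test was made of the list. Of the 14 genes, 2 were highest in the small label T cell Naive. *Traf1*, an adaptor of these receptors, had 504 CPM in the label T cells (492 to 567). The NF-κB subunit gene *Nfkb1* had 621 CPM there and 593 CPM in NKT, and *Tnfaip3*, which encodes the inhibitor A20, 593 CPM in NKT (521, 563, 607 and 625). *Rel* was highest in B cells with 628 CPM, and *Nfkbia*, the gene of the inhibitor IκBα, in Myeloid cells with 1706 CPM (1244, 1723, 1648 and 2036). *Siva1*, whose product binds the tail of CD27, was highest in the label Stem cells with 235 CPM and had 149 CPM in Stroma.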

How the data were processed

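CD45+ bead-enriched cells of CT26 tumors were profiled by droplet-based 3′ mRNA-seq of single cells. Per the labels, the authors made the UMI counts with Cell Ranger 3.0.2 on mm10 (GRCm38) and deposited these counts raw, with a library name and a cell label for each cell. Per the study's methods cells over 500 UMIs were kept. The library names match no sample, so none was placed in a treatment group and the libraries were pooled or shown one by one. Deposited counts per cell ran from 1220 to 213981 UMIs.

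For every label or group the UMIs of its cells were added up and scaled to CPM, with exact Poisson intervals (scipy 1.17.1, pandas 2.3.3 and numpy 2.4.6 under Python 3.11.15). Differences used log2(CPM + 1). For shares, 2000 UMIs were drawn from each cell without replacement, shallower cells were left out, and intervals are exact binomial. A count of 0 was taken to allow 3 UMIs. Thinning and the 2-fold rule were tested on simulated data. Doublets were scored with scrublet in scanpy 1.11.5, and the 606 cells over a score of 0.25 were kept, and left out in an alternative. The methods for the single-cell data name no removal of doublets or free RNA. Members, gene lists and markers were chosen with earlier results of these data known, and the splits by CD3, *Ptprc*, fibroblast genes and CD8 state, and the 2-fold counts between groups picked by transcripts, after values had been seen. Of each list the 6 genes with the highest level in their highest label are named, leaving out both *Bcl2a1b* and *Bcl2a1d*, which are near-identical copies, and for each member the 3 genes with the highest correlation. Gene positions are from GENCODE M21 and promoters from RefSeq. Alternatives were other depths, pseudocounts, filters and weights, and each library left out.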

Additional observations from a re-analysis of the deposited data

How the results depend on the processing

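Levels and shares in each member's highest label were recomputed without each library and without filtered cells, levels with other weights, shares at other depths, and counts of genes with another pseudocount, no filter and pooled values. Leaving out cells over 10% mitochondrial UMIs moved none of the 16 values beyond its counting interval, and leaving out cells with a doublet score over 0.25 moved only *Tnfsf4* in T cell EFF, from 14.6 to 16.2 CPM. With equal weight for each library *Tnfrsf18* in NKT had 718 CPM, *Tnfrsf4* in T cells 1173 CPM, *Tnfrsf9* in NKT 1209.6 CPM and *Cd27* in T cells 403 CPM. The order of labels was not recomputed with equal weight. By library median *Tnfrsf18* was higher in T cells (775 CPM) than in NKT (713 CPM). *Cd27* was higher in NKT (442 CPM) than in T cells (428 CPM), so these top places depend on the weighting. As a mean of the cells' own CPM, *Cd27* had 604 CPM, *Tnfsf4* 13.02 CPM and *Tnfsf9* 44.8 CPM.

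With each library left out in turn, the level ran from 693 to 787 CPM for *Tnfrsf18*, 884 to 1026 CPM for *Tnfrsf4*, 1181 to 1380 CPM for *Tnfrsf9*, 431 to 549 CPM for *Cd27*, 11.3 to 17.3 CPM for *Tnfsf4*, 51.2 to 56.4 CPM for *Tnfsf9* and 8.63 to 12.6 CPM for *Cd70*. The thinned share ran from 59.9% to 67.0% for *Tnfrsf9* and from 1.75% to 2.78% for *Tnfsf4*.

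Shares rose from 1000 to 4000 UMIs per cell. At 1000 and 4000 UMIs and without thinning they were 44.6%, 81.8% and 79.4% for *Tnfrsf18* in NKT, 51.2%, 87.6% and 86.7% for *Tnfrsf4* in T cells, 52.0%, 79.9% and 73.2% for *Tnfrsf9* in NKT, 19.2%, 50.6% and 55.1% for *Tnfrsf1b* in NKT, 42.4%, 74.4% and 77.3% for *Cd27* in T cells, 1.35%, 4.24% and 9.80% for *Tnfsf4* in T cell EFF, 3.92%, 13.2% and 23.8% for *Tnfsf9* in Myeloid, and 0.963%, 3.40% and 8.56% for *Cd70* in T cell EFF.

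On pooled values alone, without asking each library, the 2-fold rule called 524 genes higher in T cell EFF than in NK cells (267 before), 492 and 609 higher and lower in NKT than in T cell EFF (192 and 187), 222 and 481 in T cell MEM (47 and 275), 323 and 9 in ILC (163 and 4), and 488 and 795 in DC (299 and 430). In the comparisons added after values had been seen, it called 573 and 547 in *Foxp3* positive against CD8 cells (231 and 156), 274 and 148 against conventional CD4 cells (53 and 46), and 674 and 507 in mature DC (170 and 102). With a pseudocount of 5 CPM the counts were 99 lower in NKT, 24 higher in T cell MEM, 101 higher in ILC, 31 and 30 against conventional CD4 cells, and 55 lower in mature DC. With no filter on low values 243 genes were lower in *Foxp3* positive than in CD8 cells. Leaving out doublet-scored cells, also chosen after seeing the data, put *Tnfrsf18* at 357 CPM, *Tnfrsf4* at 316 CPM and *Tnfrsf9* at 991 CPM in CD8 cells, all still below the *Foxp3* positive level.

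No test, paired or not, was made, by choice: libraries of unknown treatment were not taken as replicates. The 2-fold rule takes its differences within each library. Rare transcripts set the limit: several ligand values rest on fewer than 10 UMIs, groups picked by 1 UMI miss shallow cells, and free RNA and doublets were not separated.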
